A study of Rattus norvegicus with 8 samples.

Results

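Lymphocyte genes were examined in the kidneys of rats fed a high phosphorus (HP) diet or a control diet. The genes were chosen by name from general knowledge of T cells, natural killer (NK) cells, B cells and plasma cells, with earlier results of these data known, and the rule itself uses no measured value. Of the 43 genes named, 37 were measured, out of 14217 genes on the array. The T and NK cell genes numbered 29 measured of 33, and the B and plasma cell genes 8 measured of 10. Cd27, Tbx21, Foxp3, Klrb1, Cd79a and Pax5 had no probe set matched to their symbol and were not analysed here. The 37 genes were read by 49 probe sets, and 10 genes had more than 1.

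Kidney RNA came from male Wistar rats aged 8 weeks, with 1 rat on each Affymetrix rat genome array. For 24 days, 4 rats received the HP diet with 1.2% phosphorus and 4 received the control diet with 0.3% phosphorus, both diets being based on AIN-93G. Phosphorus was raised with KH2PO4 at the expense of corn starch, so the HP diet also added potassium. The arrays were run on rats that the authors had selected as average for their group, and the spread between arrays is therefore that of chosen animals. The markers of kidney tubules were at high values, with a mean deposited value of 13.52 for Umod (uromodulin of the thick ascending limb), 12.6 for Lrp2 (megalin of the proximal tubule) and 11.3 for Aqp2 (the water channel of the collecting duct).

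T cells recognise antigen through a receptor whose signalling chains belong to the CD3 complex. The kinases LCK and ZAP70 and the adaptor LAT carry the signal inwards, and CD28 and ICOS add costimulation. Survival and growth of T cells depend on cytokine receptors, among them the IL-7 receptor and the other receptors that share the common gamma chain. NK cells and cytotoxic T cells kill through perforin and granzymes. B cells signal through CD79 and the adaptor BLNK, and they mature into plasma cells, which secrete antibody. Lymphocytes are a minor cell population of the whole kidney. In a whole kidney extract, a change in the number of such cells and a change in RNA per cell cannot be told apart.

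The deposited values lie on a log scale and were taken as log2. The method that made them (distribution free weighted summarization, DFW) shrinks each probe set by its own spread, so differences are minute and are not fold changes. Each array is given below as its deviation from the control mean in millionths of a log2 unit. Differences, HP minus control, are given with their SE in the same unit and as a standardized difference, a count of SDs pooled from within the diets. A gene was called higher or lower at an adjusted p below 0.05 in limma. Each gene is represented by its brightest probe set, that of highest mean, unless another is named.

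A limited set of lymphocyte genes rose on the HP diet, and none fell. In the T cell receptor complex these were Cd3g (a signalling chain of CD3) and Lck. Among the cytokine receptors they were Il7r (the IL-7 receptor alpha chain) and Il2rg (the common gamma chain), whose direction turned under both scalings described below. Of the B and plasma cell genes, Blnk and Sdc1 (syndecan-1, a surface marker of plasma cells that epithelial cells also carry) rose. Thus 4 of 29 T and NK cell genes and 2 of 8 B and plasma cell genes were called higher, against 4.58% of all genes. None of either class was called lower, against 1.23% of all genes, and the remaining 25 T and NK cell genes and 6 B and plasma cell genes were not called. Counting every probe set, 5 of 39 and 2 of 10 were called higher, against 2.95% of all probe sets, and none lower, against 1.13%. Without 1 array the T and NK cell genes called higher numbered 3 (HP replicate 3 or control replicate 1 left out), 2 (HP replicate 2 or control replicate 4) or 1 (HP replicate 1 or 4 or control replicate 2 or 3), and the B and plasma cell genes 1 (HP replicate 4 or control replicate 4) or 0 (any other array). The 4 HP arrays lay above all 4 control arrays for 10 of the 37 genes, against 10.2% of all genes, and the diets overlapped for the other 27. None of the 37 had the HP arrays below all control arrays, against 6.23% of all genes. Each of these 10 genes had p = 0.029 in the exact two-sided permutation test, the smallest that the 70 arrangements of the arrays allow. Diets that do not overlap give this p by construction, so it adds nothing to the separation itself.

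As deposited, the T and NK cell genes had a median standardized difference of 0.58, which turned to -0.90 after each array was centred on its median and to -0.71 after quantile normalization. The B and plasma cell genes had a median of 1.06, which turned to -0.22 and -1.04 under the same scalings. Over all genes the median was -0.07 as deposited. The array medians were on average 27.7 millionths higher on the HP diet than on the control diet, so median centring subtracts 27.7 from each difference and turns any positive difference below that by construction. A sign after median centring therefore says only whether a difference exceeded 27.7 millionths, as 5 T and NK cell genes and 4 B and plasma cell genes did. As deposited, 20 of the 29 T and NK cell genes and 7 of the 8 B and plasma cell genes had a positive difference. HP replicate 2 was the highest array for 10 of the T and NK cell genes and for 2 of the B and plasma cell genes, and the same count over all genes was not made here.

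**Figure D1:**
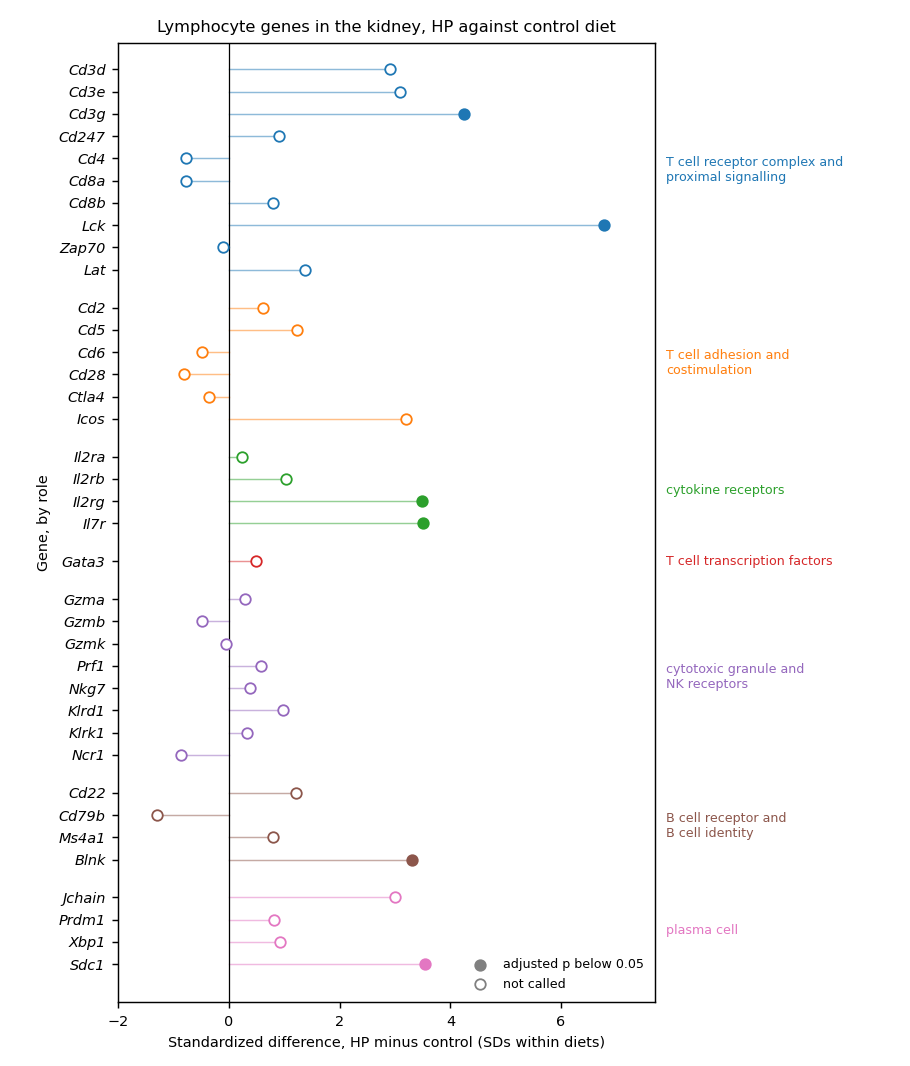
Standardized difference of each measured gene, HP minus control in SDs within diets, from the values as deposited, with genes grouped by role and coloured by group. Filled points are the 6 genes with an adjusted p below 0.05 (Cd3g, Lck, Il2rg, Il7r, Blnk and Sdc1), open points those not called, and the difference of Il2rg was below 0 under both scalings.

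In the T cell receptor complex and its proximal signalling, 2 of the 10 measured genes were called higher, against 4.58% of all genes. The 10 genes had a median standardized difference of 1.14 as deposited (-0.68 after median centring and 0.35 after quantile normalization). Lck, the kinase that starts T cell receptor signalling, had deviations of 72, 85.4, 67.7 and 74.5 in the HP arrays, against 10.5, -10.7, -12.9 and 13 in the control arrays. All HP arrays thus stood far above the narrow range of the control arrays. The difference was 74.9 ± 7.81 (SE, n = 4 per diet), or 6.78 SDs, with an adjusted p of 0.0067 in limma. Leaving out any single array kept the call of Lck, with adjusted p between 0.014 and 0.028, but median centring (0.33) and quantile normalization (0.28) ended it with the direction kept.

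For Cd3g the deviations were 439, 449, 281 and 411 in the HP arrays and 28.3, -106, -58.3 and 136 in the control arrays. HP replicate 3 was the lowest of its diet and control replicate 4 the highest of its own, and the diets were still apart. The difference was 395 ± 65.7 (SE), or 4.25 SDs, with an adjusted p of 0.024. Both scalings kept Cd3g called higher (adjusted p = 7.4e-05 with median centring and 0.00059 with quantile normalization). Its call held without HP replicate 3 (0.029) or control replicate 4 (0.025), whereas leaving out any of HP replicates 1, 2 and 4 and control replicates 1, 2 and 3 gave an adjusted p between 0.059 and 0.075.

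Cd3d and Cd3e, which encode the other CD3 chains and lie in the same cluster, Cd3d next to Cd3g and Cd3e next to Cd3d, were singled out after their values had been seen. Cd3d had deviations of 56.0, 102, 47.2 and 47.7 in the HP arrays, against 20.7, -13.3, 5.05 and -12.4 in the control arrays. The brighter probe set of Cd3e had 28.8, 76.5, 40.3 and 58.2 in the HP arrays and -11.8, -3.30, 2.31 and 12.8 in the control arrays. For both genes the HP arrays all lay above the control arrays, with HP replicate 2 the highest. Neither passed the threshold in limma, with 2.90 SDs and an adjusted p of 0.068 for Cd3d and 3.09 SDs and 0.057 for Cd3e. Rank products, which ranks raw differences and was the test named in the study's methods, called both higher (FDR 0.017 for Cd3d and 0.024 for Cd3e). The other probe set of Cd3e differed by 1.59 SDs (adjusted p = 0.26), with overlapping diets, and by -0.63 SDs after median centring.

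Promoter sequences are shown for the pair Cd3g and Cd3d, which lie head to head, and for Lck and Il7r among the called genes, so that their letters can be set beside the values. They are windows of 300 bases from RefSeq on build GRCr8, from 250 bases before to 50 bases after a start site. The start sites behind these windows, of Cd3g on the minus strand and of Cd3d on the plus strand, were 1601 bases apart. The annotated genes themselves were 486 bases apart. Capitals mark the letters AGGAAG (an ETS family motif), TGTGGT (a RUNX motif) or CAGCTG (an E-box), searched on both strands, and no matches overlapped. The windows are Cd3g at chr8:54183869-54184168 (minus strand), Cd3d at chr8:54185269-54185568 (plus strand), Lck at chr5:147183601-147183900 for its downstream start and chr5:147201218-147201517 for its upstream start (minus strand), and Il7r at chr2:60204868-60205167 (minus strand).
Cd3g: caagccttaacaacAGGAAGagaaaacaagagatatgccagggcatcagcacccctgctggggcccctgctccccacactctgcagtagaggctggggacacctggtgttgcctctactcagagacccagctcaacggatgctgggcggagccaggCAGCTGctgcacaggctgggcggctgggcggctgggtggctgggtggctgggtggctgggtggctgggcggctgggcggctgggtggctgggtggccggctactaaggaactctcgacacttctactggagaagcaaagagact
Cd3d: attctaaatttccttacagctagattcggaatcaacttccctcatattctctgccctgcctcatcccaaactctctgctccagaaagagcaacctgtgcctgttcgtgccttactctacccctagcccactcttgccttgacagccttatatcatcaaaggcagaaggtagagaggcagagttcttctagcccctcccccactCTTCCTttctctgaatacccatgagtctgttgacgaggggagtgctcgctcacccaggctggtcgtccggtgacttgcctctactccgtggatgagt
Lck, downstream start: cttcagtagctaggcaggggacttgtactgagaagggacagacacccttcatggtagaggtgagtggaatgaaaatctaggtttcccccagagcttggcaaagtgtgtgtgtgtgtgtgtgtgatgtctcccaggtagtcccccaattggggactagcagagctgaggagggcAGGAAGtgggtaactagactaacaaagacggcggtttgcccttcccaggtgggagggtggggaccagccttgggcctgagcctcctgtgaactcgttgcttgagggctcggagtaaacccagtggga
Lck, upstream start: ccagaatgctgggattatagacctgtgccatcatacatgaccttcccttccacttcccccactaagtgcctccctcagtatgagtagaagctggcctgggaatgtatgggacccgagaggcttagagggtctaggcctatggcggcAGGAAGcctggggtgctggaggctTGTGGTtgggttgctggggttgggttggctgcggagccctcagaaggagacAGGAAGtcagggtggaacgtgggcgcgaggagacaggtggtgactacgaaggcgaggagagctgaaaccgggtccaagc
Il7r: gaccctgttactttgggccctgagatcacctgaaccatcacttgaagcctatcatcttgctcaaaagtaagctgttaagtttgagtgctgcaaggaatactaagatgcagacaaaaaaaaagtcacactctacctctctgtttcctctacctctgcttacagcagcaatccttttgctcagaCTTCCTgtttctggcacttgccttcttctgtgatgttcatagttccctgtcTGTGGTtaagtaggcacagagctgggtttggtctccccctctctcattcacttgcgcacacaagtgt

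The ETS letters stood in all 5 of these windows, beside an E-box in Cd3g and a RUNX match in the upstream Lck window and in Il7r. Of the measured genes 29 had a window, 30 windows in all, and 63.3% of the windows held the ETS letters, against 34.5% of 33469 rat promoters of the same length. The RUNX letters were in 36.7% against 17.3%, and the E-box letters in 30% against 15.1%. Among the windows of called genes 5 of 7 held the ETS letters, and those of Il2rg and Blnk held none of the motifs. Genes that were not called had the ETS letters in 14 of 23 windows. A match of letters is a description and not a binding site.

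The remaining genes of the T cell receptor group had overlapping diets. Lat, the membrane adaptor, differed by 1.37 SDs (adjusted p = 0.33), with HP replicate 1 the highest array at 23.4. Cd247, the zeta chain, differed by 0.91 SDs (0.56). The coreceptors did not share a sign, with -0.78 SDs for Cd4, -0.77 SDs for the brightest of the Cd8a probe sets and 0.79 SDs for Cd8b. The other Cd8a probe sets differed by 0.29 and 1.00 SDs. Zap70, the kinase that acts after LCK, had a difference of -0.11 SDs (adjusted p = 0.98) in its brighter probe set and 0.63 SDs in the other. The genes with the diets apart were thus the CD3 chains Cd3d, Cd3e and Cd3g together with Lck.

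**Figure D2:**
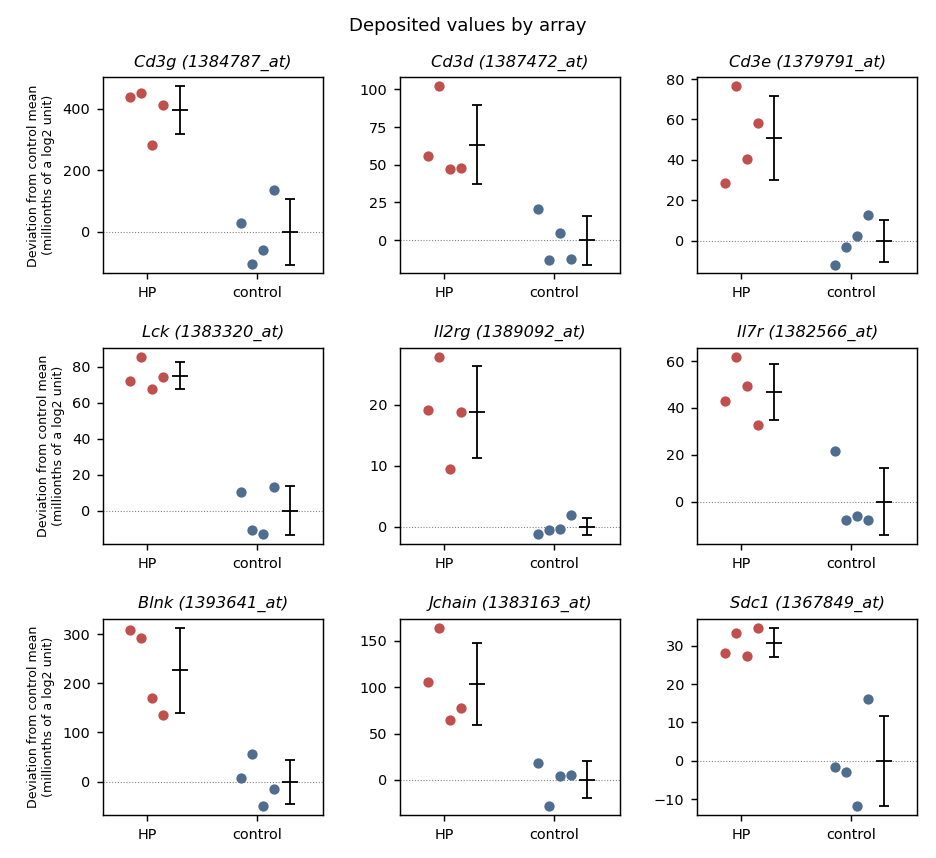
Deposited values of 9 genes in every array, as the deviation from the control mean in millionths of a log2 unit, with HP on the left and control on the right of each panel and vertical scales that differ. Points are arrays 1 to 4 from left to right, the horizontal mark with its bar is the mean ± SD of 4 arrays, and in all 9 panels the HP arrays lie above the control arrays, although Cd3d, Cd3e and Jchain were not called.

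None of the 6 adhesion and costimulation genes was called, against 4.58% of all genes higher and 1.23% lower. The 6 genes had a median standardized difference of 0.13 as deposited (-0.79 after median centring and -1.0 after quantile normalization). Icos, the inducible costimulator of activated T cells, came closest. Its brightest probe set had deviations of 18.5, 14.46, 25.4 and 16.4 in the HP arrays and 8.67, -2.47, 1.19 and -7.39 in the control arrays. The diets did not overlap, and control replicate 1 lay nearest to the HP arrays. The difference was 18.7 ± 4.14 (SE), or 3.19 SDs, with an adjusted p of 0.052 that became 0.048 without control replicate 1. A different Icos probe set (2.55 SDs, adjusted p = 0.097) also had all HP arrays on top, and the last differed by 0.29 SDs (0.88). After median centring all of these differences of Icos were negative (-0.30, -0.56 and -0.50 SDs), and quantile normalization left the brightest probe set at -1.28 SDs.

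Cd5, an inhibitory receptor of T cells, had 8.91, 38.3, 23.5 and -1.77 in the HP arrays, against -13.5, 7.84, 0.554 and 5.12 in the control arrays. HP replicate 4 lay within the control range, and the difference of 1.23 SDs was not called (adjusted p = 0.39). As deposited, Cd2 differed by 0.62 SDs, Cd6 by -0.49 SDs, Cd28 by -0.81 SDs and Ctla4 by -0.36 SDs. These 4 encode an adhesion receptor (Cd2), a relative of Cd5 (Cd6), the main costimulator (Cd28) and its inhibitory counterpart (Ctla4). Cd28, Ctla4 and Icos are neighbours with 0 genes between them in the RefSeq annotation, and of these Icos alone had the diets apart.

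Among the cytokine receptors 2 of 4 genes were called higher, against 4.58% of all genes. The median standardized difference of the 4 was 2.25 as deposited (-0.60 after median centring and -0.32 after quantile normalization). Il7r, the receptor through which naive and memory T cells are maintained, had deviations of 43.1, 61.8, 49.2 and 32.9 in the HP arrays and 21.7, -7.84, -6.06 and -7.75 in the control arrays. Control replicate 1 stood apart from the other control arrays and came close to HP replicate 4. The difference was 46.7 ± 9.42 (SE), or 3.51 SDs, with an adjusted p of 0.040. The dimmer probe set of Il7r was called too, with 9.27, 10.2, 10.6 and 8.76 in the HP arrays, against -3.89, -0.924, -0.761 and 5.57 in the control arrays. Its difference was 9.71 ± 2.03 (SE), or 3.37 SDs, with an adjusted p of 0.045. Both probe sets of Il7r thus had the HP arrays on top. The dimmer one had a mean at percentile 3.8 of all probe sets, where values near background cannot be told from low expression. Without control replicate 1 the brighter one kept its call (0.031) and without control replicate 4 the dimmer one did (0.013), while leaving out any other array gave an adjusted p between 0.053 and 0.11 for the brighter and between 0.085 and 0.12 for the dimmer. The dimmer probe set turned to -0.60 SDs after median centring, and the brighter stayed positive under both scalings without a call (adjusted p = 0.45 after median centring and 0.065 after quantile normalization).

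Il2rg, shared by the receptors for IL-2, IL-7 and other cytokines, had 19.1, 27.8, 9.43 and 18.8 in the HP arrays, against -1.11, -0.571, -0.323 and 2.01 in the control arrays. The control arrays lay close together, and the HP arrays were spread over a wide range. The difference was 18.8 ± 3.81 (SE), or 3.48 SDs, with an adjusted p of 0.041. Its call held without HP replicate 2 (0.049) or HP replicate 3 (0.019), while leaving out HP replicate 1 or 4 or any control array gave an adjusted p between 0.083 and 0.11. The direction of Il2rg turned under both scalings, to -0.30 SDs after median centring (adjusted p = 0.71) and to a lower call after quantile normalization (8.7e-28). That last p rests on 4 equal values within each diet, which quantile normalization gave to 15255 of the 31042 probe sets, against 0 as deposited. The alpha and beta chains of the IL-2 receptor were not called, with 0.24 SDs for Il2ra and 1.02 SDs for Il2rb.

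Of the 3 T cell transcription factors among the member genes, only Gata3 was measured. It also serves the development of kidney epithelium. It had 31.1, -14.4, 13.7 and 19.7 in the HP arrays and 31.5, -20.5, -30.6 and 19.6 in the control arrays. The diets covered the same range, and the difference of 0.49 SDs was not called (adjusted p = 0.77). The second Gata3 probe set differed by 0.26 SDs as deposited (0.91) and was called lower after quantile normalization (3.7e-05).

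None of the 8 measured cytotoxic granule and NK receptor genes was called, against 4.58% of all genes higher and 1.23% lower. None had the diets apart, against 10.2% of all genes with the HP arrays on top and 6.23% with them below. None had an unadjusted p below 0.05 in limma, against 13.4% of all genes higher and 9.34% lower. At such shares 8 genes are too few for these counts to set the group apart. Rank products called 0 of them. Their standardized differences ran from -0.86 to 0.98, with a median of 0.31 as deposited (-0.94 after median centring and -1.67 after quantile normalization). Klrd1, an NK receptor subunit that recognises nonclassical class I molecules, had 1.26, -0.284, 2.15 and 1.64 in the HP arrays, against 0.525, 1.52, -1.72 and -0.332 in the control arrays. Ncr1, the activating receptor NKp46 and a defining marker of NK cells, had -2.88, 0.212, -1.07 and -1.24 in the HP arrays and -2.06, -0.481, 1.25 and 1.29 in the control arrays. Both genes overlapped widely between diets, with 0.98 SDs for Klrd1 (adjusted p = 0.53) and -0.86 SDs for Ncr1 (0.58). The effector genes Gzma (0.29 SDs), Gzmb (-0.49 SDs), Gzmk (-0.06 SDs), Prf1 (0.58 SDs) and Nkg7 (0.39 SDs) and the receptor Klrk1 (0.32 SDs) lay between them.

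In the B cell group, 1 of 4 measured genes was called higher, against 4.58% of all genes. Blnk, the adaptor that links the B cell receptor to its downstream enzymes and that macrophages also express, had 308, 292, 170 and 136 in the HP arrays, against 7.32, 56.2, -49.7 and -13.9 in the control arrays. HP replicates 1 and 2 stood above HP replicates 3 and 4, and all of them above the control arrays. The difference was 226 ± 48.5 (SE), or 3.30 SDs, with an adjusted p of 0.047. Only removal of HP replicate 4 kept the call (0.043), and removal of any of the other 7 arrays gave an adjusted p between 0.069 and 0.12. Median centring kept the call of Blnk (0.011), and quantile normalization gave equal values to both diets.

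The genes that define B cells more narrowly were not called. Cd79b, a signalling chain of the B cell receptor, had -0.762, -1.12, -1.71 and -0.976 in the HP arrays and 0.568, 0.595, 0.586 and -1.75 in the control arrays. Control replicate 4 lay below all other arrays, and the difference of -1.31 SDs was not called (adjusted p = 0.41). Ms4a1, which encodes CD20, differed by 0.79 SDs (0.60), and Cd22, an inhibitory coreceptor, by 1.21 SDs (0.41). The B cell group had a median of 1.00 SDs as deposited, -0.64 after median centring and -4.22 after quantile normalization.

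Among the 4 plasma cell genes, only Sdc1 was called higher, against 4.58% of all genes. Sdc1 had 28, 33.2, 27.2 and 34.7 in the HP arrays, against -1.51, -2.91, -11.8 and 16.2 in the control arrays. The HP arrays were close together, and control replicate 4 lay nearest to them. The difference was 30.8 ± 6.16 (SE), or 3.53 SDs, with an adjusted p of 0.039. Leaving out control replicate 4 kept the call (0.014), while leaving out any other array gave an adjusted p between 0.075 and 0.10. Median centring left Sdc1 at 0.09 SDs, and quantile normalization gave equal values to both diets. The second probe set of Sdc1 differed by 1.46 SDs as deposited (0.30) and was called lower after quantile normalization (0.0012).

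Jchain, which encodes the chain that joins IgA and IgM units and is made by plasma cells, had 106, 164, 65.0 and 77.1 in the HP arrays, against 18.6, -28.4, 4.20 and 5.57 in the control arrays. All HP arrays lay above the control arrays, with HP replicate 2 the highest. The difference was 103 ± 24.3 (SE), or 3.0 SDs, and missed the threshold in limma (adjusted p = 0.062), whereas rank products called it higher (FDR 0.0074). Its second probe set differed by -0.07 SDs (adjusted p = 0.98), so the probe sets of Jchain did not give the same picture. The brightest Jchain probe set turned to -1.37 SDs after quantile normalization. The transcription factors Prdm1 (0.81 SDs) and Xbp1 (0.92 SDs), which drive plasma cell differentiation and secretion, were not called. Xbp1 was bright, with a mean of 10.62 at percentile 96.5 of all probe sets, and which kidney cells gave that value was not tested. The 4 genes had a median of 1.96 SDs as deposited, 0.05 after median centring and -1.04 after quantile normalization.

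**Figure D3:**
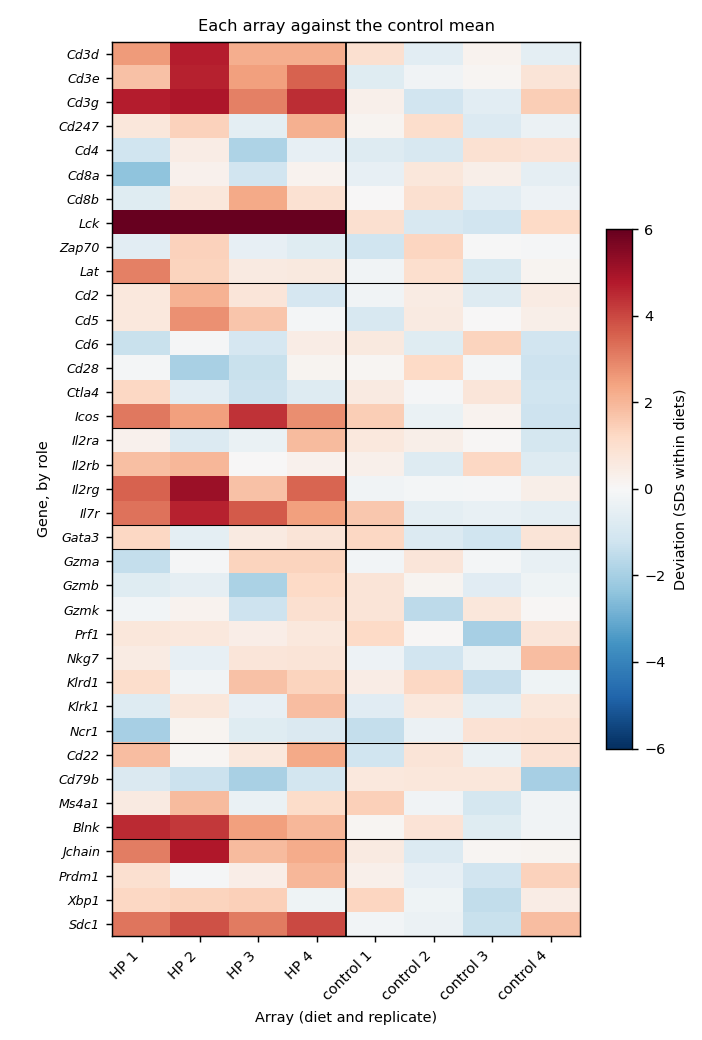
Deviation of each array from the control mean, in SDs within diets, for the 37 genes in rows by role (black lines part the roles) and the arrays in columns, HP on the left and control on the right, from the values as deposited. Red is above and blue below the control mean, with the scale ending at 6 SDs, which Lck reaches or passes in all HP arrays. Cd3d, Cd3e, Cd3g, Lck, Icos, Il2rg, Il7r, Blnk, Jchain and Sdc1 are red in all HP arrays, and most other rows, the cytotoxic genes among them, are pale.

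Other genes known from the same cells were examined in the same way. Of 22 other T cell genes measured, 3 were called higher and 0 lower, against 4.58% and 1.23% of all genes. The number called higher was 2 without HP replicate 2 or control replicate 4 and 1 without control replicate 2 or 3. After quantile normalization 0 were called higher and 7 lower. Cxcr3, the receptor for CXCL9, CXCL10 and CXCL11 on activated T cells, had 50.4, 53.4, 51.0 and 52.3 in the HP arrays, against -0.945, 5.21, -3.45 and -0.811 in the control arrays. Its values hardly varied within either diet, and the difference was 51.8 ± 1.96 (SE), or 18.71 SDs, with an adjusted p of 0.00094. The call of Cxcr3 held without any single array (adjusted p from 0.00021 to 0.010), but not after median centring (0.35) or quantile normalization (0.60), where the difference stayed positive. Tcf7, a transcription factor of naive T cells, rose by 4.91 SDs (0.016), a call that ended without control replicate 2 (0.054) or control replicate 3 (0.055) or after quantile normalization (0.16). Fyb1, an adaptor, rose by 4.57 SDs (0.021), turned to -0.71 SDs after quantile normalization, and lost its call without HP replicate 2 (0.055) or control replicate 2, 3 or 4 (0.056, 0.056 and 0.050). The dimmer Fyb1 probe set was not called (1.78 SDs, adjusted p = 0.22), with overlapping diets. Ptpn22, a phosphatase that restrains T cell receptor signalling, differed by 2.96 SDs as deposited (0.064) and by -0.40 SDs after quantile normalization.

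Of 11 other NK and cytotoxic genes 1 was called higher and 0 lower, against 4.58% and 1.23% of all genes, with a median of -0.84 SDs. The called gene was Srgn (the granule proteoglycan serglycin, which many leukocytes make), at 3.73 SDs (adjusted p = 0.034), and each of the 8 removals of an array ended the call (0.055 to 0.086). After median centring Srgn turned to -0.40 SDs. Of 15 other B and plasma cell genes limma called 0, against 4.58% of all genes higher and 1.23% lower. Rank products also called 0, against 5.31% and 2.33%. At an unadjusted p below 0.05 in limma 2 were higher and 1 lower, against 13.4% and 9.34% of all genes. Cd180, a Toll-like receptor relative on B cells, differed by 2.31 SDs as deposited (0.12), by -0.53 SDs with median centring and by -1.72 SDs with quantile normalization. Cxcr5, the homing receptor for follicles, differed by -1.79 SDs (0.21). The other T cell list had a median of 1.04 SDs and the other B and plasma cell list of 0.56 SDs as deposited, and both turned to -0.89 after median centring and -0.71 after quantile normalization.

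A list of ligands and adhesion molecules that draw T cells into tissue also held Cxcl13 and the cytokines Il7 and Il15, which were not called. Of its 13 measured genes 7 were called higher and 0 lower, against 4.58% and 1.23% of all genes. The count was 3 without HP replicate 1, 4 without HP replicate 2 or control replicate 1 or 2, 4 after median centring, and 2 higher and 2 lower after quantile normalization. Cxcl10, a ligand of CXCR3, had 75.3, 65.8, 66.8 and 80.4 in the HP arrays, against 6.36, 1.64, 4.36 and -12.4 in the control arrays, a difference of 9.29 SDs (adjusted p = 0.0039). The diets were far apart for Cxcl10, with no control array above 6.36, but the call ended after median centring (0.33) and quantile normalization (0.065) with the direction kept. Cxcl11, another ligand of CXCR3, rose by 7.30 SDs (0.0060), Icam1, the adhesion molecule bound by leukocyte integrins, by 6.96 SDs (0.0066), and Ccl21, which attracts naive T cells, by 5.13 SDs (0.014). Quantile normalization ended the call of Icam1 (0.12). Without HP replicate 1 the adjusted p of Ccl21 was 0.051. Cxcl9, the remaining CXCR3 ligand, was not called, at 1.09 SDs (0.46). The list had a median of 3.39 SDs as deposited, 0.79 after median centring and 0.71 after quantile normalization.

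Some of the genes shared by leukocytes and most of the measured markers of macrophages also rose in the HP arrays. Of 15 pan-leukocyte genes 7 were called higher and 0 lower, against 4.58% and 1.23% of all genes. The count of 7 became 5 to 8 with an array left out and 9 after median centring. After quantile normalization 5 were called higher and 2 lower. The list had a median of 3.15 SDs (2.73 under median centring and 0.87 under quantile normalization). As deposited, 13 of the 15 had a positive difference, and Cd52 (-1.47 SDs) and Evl (-1.60 SDs) a negative one, neither of them called. The called genes included Ptprc (CD45) at 6.20 SDs (adjusted p = 0.0084) and Coro1a, an actin regulator of leukocytes, at 9.04 SDs (0.0041). Of 18 macrophage and monocyte markers 13 were called higher and 0 lower, with a median of 3.69 SDs (3.37 and 3.02 under these scalings). The count of 13 fell to 3 without HP replicate 1 or control replicate 2 or 3, to 4 without control replicate 1 or 4, and to 5 without HP replicate 3. Clec7a, a receptor for fungal glucans, rose by 6.75 SDs (0.0068). The brighter probe set of Aif1 rose by 6.13 SDs (0.0086), which quantile normalization left without a call (0.065). The dimmer Aif1 probe set went the other way, at -2.26 SDs (0.14, not called), with every HP array below every control array. Over the macrophage list the median deviation per array was 3.5, 5.42, 3.57 and 2.49 SDs in the HP arrays, against 0.58, -0.07, -0.34 and 0.10 SDs in the control arrays. Over the T and NK cell genes it was 0.63, 0.69, 0.53 and 0.91 SDs in the HP arrays, against 0.17, -0.07, -0.11 and -0.08 SDs in the control arrays. HP replicate 2 was the highest array for 16 of the 18 macrophage markers and was also the highest for Cd3d, Cd3e, Cd3g, Lck, Il2rg, Il7r and Jchain. In these member genes all HP arrays lay above the control arrays, so the highest was an HP array by construction. How often HP replicate 2 was the highest over all genes was not counted here. The other member genes with the diets apart had their highest value elsewhere, Blnk in HP replicate 1, Icos in HP replicate 3 and Sdc1 in HP replicate 4. Il2rg, Il7r and Blnk are not confined to lymphocytes, and the part of macrophages in their differences was not tested. Of 9 neutrophil and mast cell markers limma called 0, against 4.58% of all genes higher and 1.23% lower. Rank products also called 0, against 5.31% and 2.33%. None of the 9 had an unadjusted p below 0.05 in limma, against 13.4% of all genes higher and 9.34% lower. At such shares 9 genes are too few for these counts to set the list apart. The list had a median of -0.35 SDs as deposited. Kidney tubule markers gave 1 call of 15, near the 4.58% of all genes called higher. The called marker was Scnn1b at 3.53 SDs (0.044), which turned to -0.76 SDs after median centring and -1.22 SDs after quantile normalization. Scnn1b kept its call without control replicate 2 (0.045) but not without any other array (0.074 to 0.11).

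**Figure D4:**
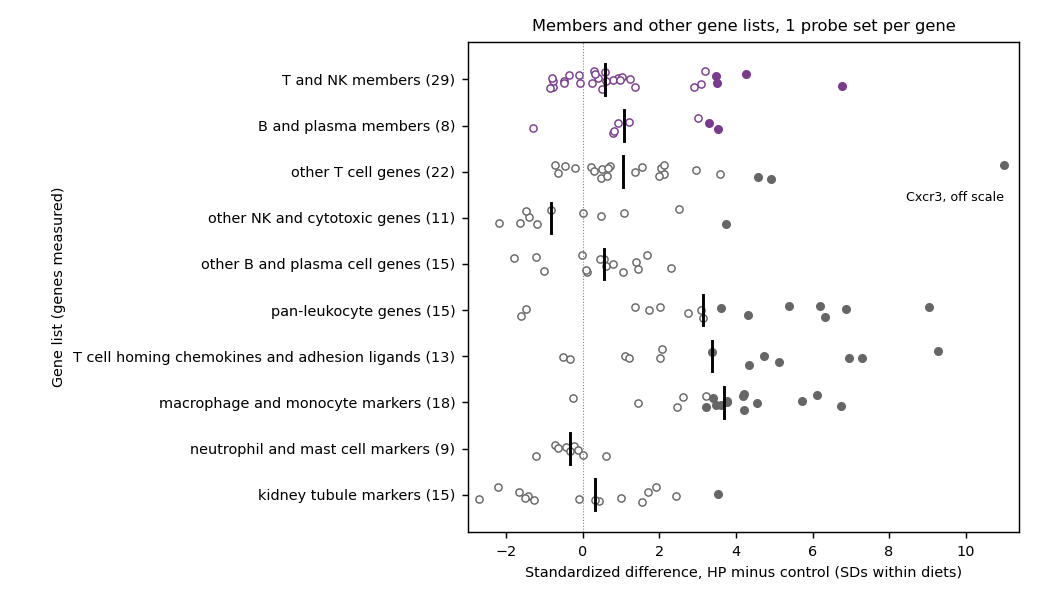
Standardized difference (HP minus control, SDs within diets, values as deposited) of every measured gene in the T and NK cell and B and plasma cell classes (purple) and in 8 further lists (grey), with called genes filled and the median of each list as a black bar. The medians of macrophage markers (3.69), the list of homing ligands, adhesion molecules and cytokines (3.39) and pan-leukocyte genes (3.15) lie to the right. Those of the T and NK (0.58) and B and plasma (1.06) genes lie to their left and were below 0 under both scalings. Cxcr3, at 18.71, is drawn at the right edge.

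The calls of the 6 genes rested on few arrays and on the scaling. Lck was the only one that limma called without each of the arrays in turn, and Cd3g was the only one called under both scalings. With the lowest 25% of probe sets by mean left out before the fit, Cd3e and Icos joined the called genes, which then numbered 8. Rank products called 7 member genes higher, namely Cd3d, Cd3e, Cd3g, Lck, Il7r, Blnk and Jchain, against 5.31% of all genes, and 0 lower, against 2.33%. Il2rg and Sdc1 were called by limma and not by rank products (FDR 0.11 and 0.054). The medians of the arrays differed by up to 65.1 millionths, whereas the same probe set differed between any pair of arrays by a median of 1.93 to 2.64 millionths. Quantile normalization called 8 member genes lower (Cd247, Lat, Cd2, Cd6, Il2rg, Gzmk, Cd22 and Cd79b), and left 12 of the 37 with equal values within each diet. The median difference of all probe sets became -27.9 millionths after median centring and -8.89 after quantile normalization, against -0.224 as deposited.

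**Figure D5:**
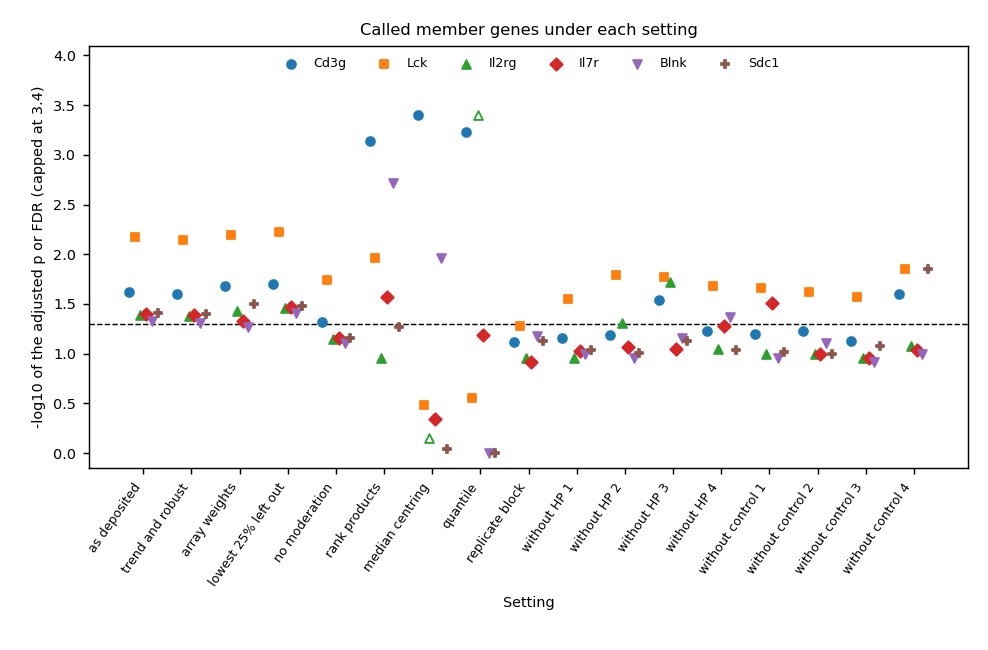
Adjusted p of the 6 called genes (FDR for rank products), as its -log10, under each setting of the analysis on the horizontal axis, with the dashed line at 0.05, values capped at 3.4 and open symbols for differences below 0. Lck (squares) lies above the line in all 8 removals of an array, Cd3g (circles) lies above it under both scalings, and Il2rg (triangles) is below 0 under both scalings, with its lower call after quantile normalization resting on values tied within diets.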

How the data were processed

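Total RNA of the left kidney was hybridized to Affymetrix whole-genome rat arrays, with 4 rats on the HP diet and 4 on the control diet. The authors summarized probes over all 8 arrays with DFW and deposited 1 log2 value per probe set (base not stated, taken as 2). DFW shrinks differences by each probe set's spread. Of 31099 probe sets, 57 Affymetrix controls were left out and 31042 were tested together with limma 3.58.1 in R 4.3.3 (prior degrees of freedom 0.772, Benjamini-Hochberg adjustment, threshold 0.05). Every adjusted p is from limma, with exact permutation tests beside it for single genes. A platform annotation table paired 20826 probe sets with 1 gene and 436 with several, which were left unnamed. The members and the lists were chosen with earlier results of these data known. Genes given array by array were all called members and, in each of 7 role groups, the 2 with the smallest limma p, and up to 4 genes of each other list were named by the same p. Cd3d and Cd3e were added with their values in view, and Cxcr3 and Cxcl10 of the other lists were also given array by array.

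Alternatives tried were rank products (16 pairs of arrays, 1000 permutations, FDR 0.05), limma with array weights, unmoderated or with a robust trend, the lowest 25% of probe sets left out, median centring, quantile normalization, a replicate block, and each array left out in turn. On simulated data of 31042 probe sets for HP minus control, limma found 0 of 200 probe sets shifted by 2 SDs (0 false calls), 31 of 200 at 4 SDs (1 false call) and 192 of 200 at 8 SDs (6 false calls). The Benjamini-Hochberg threshold depends on how many probe sets differ. In the data 915 probe sets were called higher and 350 lower, with differences down to 3.23 SDs. The simulated rates therefore do not carry over to the data. The number of arrays limits the precision. Counts and plots were made with matplotlib 3.10.9, scipy 1.17.1, pandas 2.3.3 and numpy 2.4.6 under Python 3.11.15.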

Additional observations from a re-analysis of the deposited data

Results flagged for a closer look

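In 8 of 108 groups of 4 arrays examined, 1 array lay so far from the others that its gap to the nearest took more of the group's range than Dixon's critical value for 4 samples. Chance flags about 1 in 20 such groups. Among the lymphocyte genes, HP replicate 2 was the high array for Cd3d (share of the range 0.841), control replicate 1 the high array for the brighter Il7r probe set (0.94) and for the dimmer Jchain probe set (0.835), and control replicate 4 the low array for Cd79b (0.988). The call of Il7r held without control replicate 1, as given above, and the other 3 probe sets were not called. Among the further genes, HP replicate 1 was the high array for Cdh1 (0.838) and control replicate 3 the low array for Cst7 (0.83). Lsp1 had a high array in each diet, HP replicate 2 (0.845) and control replicate 3 (0.926), and remained called without either array (adjusted p = 0.019 and 0.012 in limma).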

How the results depend on the processing

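With 4 T and NK cell genes called higher as reported, the count was 2 without moderation, 1 after median centring, 1 after quantile normalization and 1 to 3 with an array left out. With 2 B and plasma cell genes called higher, it was 1 with array weights, 0 without moderation, 1 after median centring, 0 after quantile normalization and 0 to 1 with an array left out. Quantile normalization called 6 T and NK cell genes and 2 B and plasma cell genes lower, many of its values being tied within diets. The median standardized difference of the T and NK cell genes was -0.90 after median centring, -0.71 after quantile normalization and 0.24 to 0.74 with an array left out, and that of the B and plasma cell genes -0.22 and -1.04 under the scalings. Over all probe sets, 915 were called higher and 350 lower as reported, against 522 and 171 without moderation, 440 and 155 after median centring, 339 to 672 and 79 to 219 with an array left out, and 316 and 7714 after quantile normalization. Rank products called 719 lower.

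Same-numbered arrays of the diets were not treated as pairs, since their deviations correlated at 0.1213, 0.0887, 0.0626 and 0.0015. With the replicate block, 0 T and NK cell genes and 0 B and plasma cell genes were called, the B and plasma median was 1.71, and 254 probe sets were called higher and 115 lower.

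Among the 54 named probe sets, median centring changed the sign of 18 differences, 14 of them called neither before nor after, and quantile normalization that of 12, 7 of them called neither before nor after. The others were, in millionths, -8.94 (median centring) and -113 (quantile normalization) for Il2rg, -18 for the dimmer Il7r probe set and -12.3 for Srgn (median centring), -434 for the dimmer Gata3, -44.1 for the dimmer Sdc1 and -30.3 for Fyb1 probe sets (quantile normalization), and -23 and -23.4 for Scnn1b (median centring and quantile normalization). Median centring takes 27.7 millionths off each difference, which gives these turns by construction, and the cause of those after quantile normalization was not tested.

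Of the 37 member genes 28 lay below the median brightness of all probe sets (7.06), and no detection calls were used here, so values near background cannot be told from low expression.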
